A study of Mus musculus with 10 samples.

Results

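The genes of the ribosome and the proteasome were taken as a set of widely used promoters, and the ERα peaks at their start sites were described in the arcuate and the AVPV. The set held every protein-coding gene in the RefSeq annotation of the mouse genome (GRCm38.p6, the same assembly as mm10) whose symbol begins with Rpl, Rps, Mrpl, Mrps or Psm and continues as a subunit name, with 2 pseudogenes left out. It contained 228 genes of 21000 protein-coding genes with a curated transcript. There were 54 Rpl genes (large subunit of the cytosolic ribosome), 33 Rps genes (small subunit), 49 Mrpl genes and 29 Mrps genes (large and small subunits of the mitochondrial ribosome) and 49 Psm genes (proteasome). The remaining 14 genes carry such a symbol but encode other proteins, among them the Rps6k kinases, and were kept as a class of their own.

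The peaks came from ERα ChIP-seq, which pulls chromatin down with an antibody and sequences the DNA that comes with it, on tissue of ovariectomised female C57BL/6 mice, typically 8 to 12 weeks old. The animals carried an estradiol implant (0.1 mg/mL in sesame oil) and received estradiol benzoate (0.05 mg/kg) 28 h before the tissue was taken, and this treatment was the same in both nuclei. Each nucleus had 4 ERα libraries and a pooled input, chromatin was pooled, and it is not stated whether the libraries stem from separate pools, so every SD and test below is over libraries and not over animals. No vehicle-treated or IgG library was analysed here, and whether the peaks at these genes need estradiol was not tested. Bulk tissue was used, so a peak in few cells and a weak peak in many cannot be told apart.

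Ribosomes translate messenger RNA in the cytosol, and a separate set of nuclear-encoded proteins builds the ribosomes of mitochondria. The proteasome degrades ubiquitin-tagged proteins and has a barrel-shaped core and a regulatory particle with ATPases that feed it. Cells of nearly all kinds make these proteins, and their promoters are mostly open, rich in CpG and often carry binding letters for ETS-family factors, YY1 or SP factors. ERα in contrast is best known for binding the estrogen response element, a palindrome of AGGTCA half-sites, at enhancers far from start sites.

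A gene was counted as having a promoter peak in a library when the centre of a peak lay between 1 kb before and 100 bp after the first base of one of its curated transcripts. The 8 lists held 2367 to 4079 peaks, of which 24.5% to 36.9% were at promoters of protein-coding genes. From 36 to 55 peaks per library were at promoters of the ribosomal and proteasome genes. They were 1.20% ± 0.06 of the arcuate peaks and 1.56% ± 0.26 of the AVPV peaks (SD, n = 4 each), and 1 AVPV library (1.18%) lay in the arcuate range. Promoter peaks of any protein-coding gene were also a larger part of the AVPV lists, 34.0% ± 3.8 against 27.9% ± 3.3 in the arcuate. Of these promoter peaks, those of the set were 4.32% ± 0.34 in the arcuate and 4.57% ± 0.37 in the AVPV (SD, n = 4 each), and the libraries overlapped.

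These genes had a promoter peak more often than protein-coding genes at large. In arcuate libraries 1 to 4, 19.3%, 20.2%, 17.1% and 18.4% of the 228 genes had one. In AVPV libraries 1 to 4, the values were 17.98%, 17.98%, 22.8% and 15.8%. The arcuate mean was 18.8% ± 1.3 (SD, n = 4) and the AVPV mean was 18.6% ± 3.0 (SD, n = 4), and the libraries of the nuclei overlapped. The difference of 0.11 percentage points was far smaller than the spread between libraries. The arcuate lists were longer, with a mean of 3667 peaks against 2829. With every list limited to its 2367 peaks of lowest p-value, the shares were 13.6% ± 1.5 in the arcuate and 16.7% ± 1.9 in the AVPV (SD, n = 4 each), an arcuate minus AVPV difference of -3.07 points, and the libraries still overlapped. The share over all protein-coding genes moved in the same direction, to 3.67% ± 0.62 and 4.44% ± 0.46. Over all protein-coding genes the shares were 5.42% ± 0.42 in the arcuate and 5.20% ± 0.94 in the AVPV (SD, n = 4 each). The share among the ribosomal and proteasome genes was 3.53 ± 0.26 times that over all genes of the same library (SD, n = 8), with a range of 3.10 to 3.83. The genes were chosen with results of these data in view, and no test was made of this ratio.

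Counted over the 8 libraries, 74 of the 228 genes (32.5%, 95% Wilson interval 26.7% to 38.8%, counting error only) had a promoter peak in at least 1 library, against 11.3% of all protein-coding genes. A promoter peak was called in all 8 libraries at 22 of them (9.65%), against 2.12% of all genes. Another 21 genes (9.21%) had a peak in 4 to 7 libraries and 31 (13.6%) in 1 to 3 libraries, and 154 (67.5%) had none. Over all protein-coding genes these classes held 2.93%, 6.20% and 88.7%. Recurrence went with strength within the list. A threshold in each list favours this for any gene, and the medians given here were not compared with those of other genes. The fold enrichment of a peak, the authors' ratio of its signal over the local background, was ranked within its library, and its percentile is the share of peaks in that list that do not exceed it. The median percentile was 85.2 for genes with peaks in all 8 libraries, 57.3 for those in 4 to 7 libraries and 22.9 for those in 1 to 3 libraries.

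**Figure D1:**
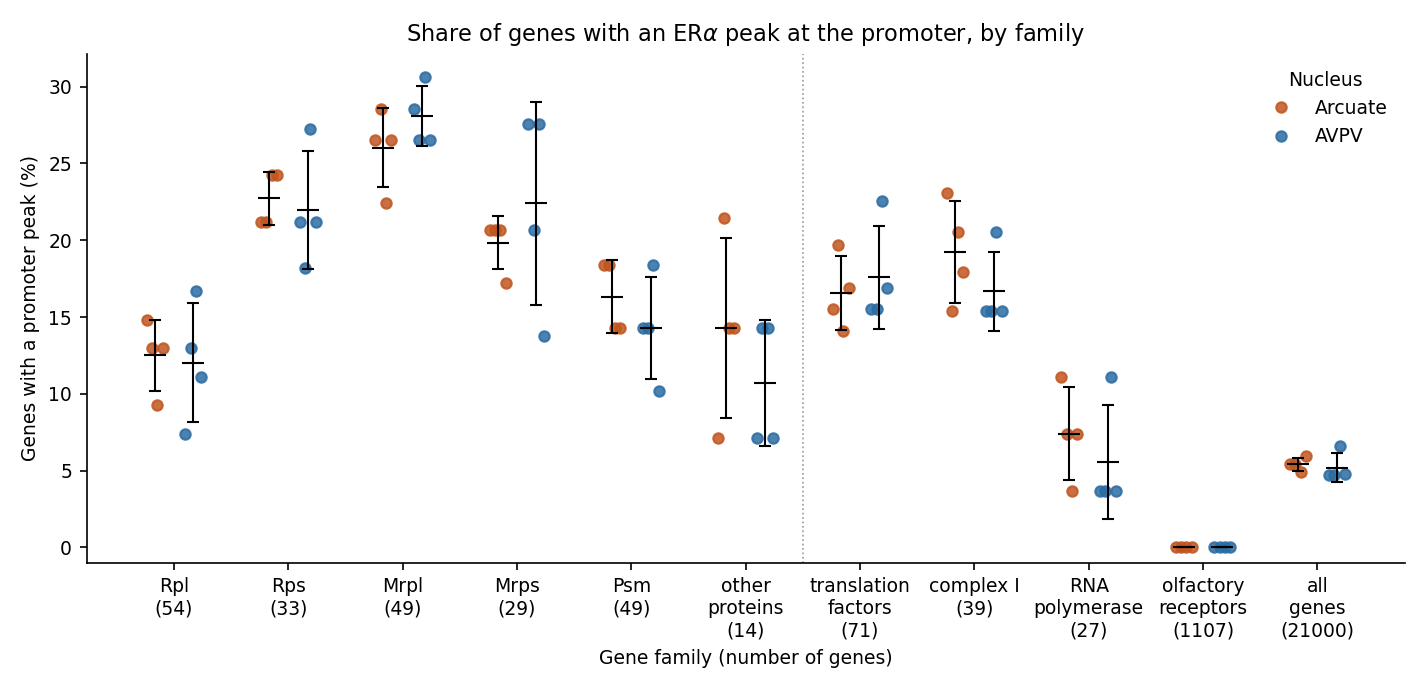
Percent of the genes of each family with an ERα peak at the promoter in each library (points, y axis), with the mean and SD of the 4 libraries of each nucleus (bars), for the ribosomal and proteasome families (left of the dotted line) and other groups of genes (right). The Mrpl genes have the highest mean, with values from 22.4% to 30.6% that are above the other 4 families in 7 of 8 libraries, and all protein-coding genes lie between 4.70% and 6.605%.

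The mean shares of the families differed over the libraries. Over the 8 libraries the mean share was 27.04% ± 2.38 for Mrpl, 22.4% ± 2.8 for Rps, 21.1% ± 4.7 for Mrps, 15.3% ± 2.9 for Psm, 12.3% ± 3.0 for Rpl and 12.5% ± 5.1 for the genes of other proteins (SD, n = 8). The Mrpl and Rpl libraries did not overlap, since the lowest Mrpl value was 22.4% and the highest Rpl value 16.7%. Every library scores the same genes, so the spread over libraries leaves out the counting error over genes. For genes with a peak in any library, the Wilson intervals were 33.7% to 60.6% for Mrpl and 14.6% to 36.9% for Rpl. These intervals overlapped, and the families were not tested against each other. Rps and Mrps lay within each other's spread. Psm was above Rpl in 7 of 8 libraries, by 3.04 ± 2.61 points on average (SD, n = 8). Both ribosomes taken whole, 24.8% ± 2.8 of the mitochondrial genes and 16.1% ± 2.4 of the cytosolic genes had a promoter peak (SD, n = 8). For genes with a peak in any library, the Wilson intervals were 33.1% to 54.6% (mitochondrial) and 18.3% to 36.6% (cytosolic), and they overlapped. The mitochondrial share was higher in 8 of 8 libraries, by 5.84 to 15.6 percentage points, with a mean of 8.75 ± 3.07.

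Shared promoters moved with that difference. A promoter was called shared when another protein-coding gene started on the opposite strand within 1 kb, and at such a promoter a peak cannot be assigned to 1 of the genes. Without shared promoters the mitochondrial share was 19.6% ± 3.8 of 51 genes and the cytosolic share 16.4% ± 2.5 of 74 genes (SD, n = 8). The difference was then 3.22 ± 3.19 percentage points, positive in 8 of 8 libraries but about as large as its SD.

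Within the proteasome, peaks were spread unevenly over the sub-complexes. The 5 genes of the inhibitor Psmf1 and of the Psmg assembly chaperones had a mean share of 50% ± 15.1, and the 6 Psmc genes, the ATPases at the base of the regulatory particle, 35.4% ± 5.9 (SD, n = 8). The 14 other regulatory subunits (Psmd) reached 9.82% ± 6.54 and the 5 Psme activators 10% ± 10.7. The rings of the core had 6.25% ± 6.68 of 8 Psma genes and 4.55% ± 6.87 of 11 Psmb genes. Among these core genes were Psma8, Psmb8, Psmb9, Psmb10 and Psmb11, which are made in few tissues and had no promoter peak in any library. When a peak was assigned by its overlap with the window, an alternative chosen after seeing the data, the shares were 60% for the inhibitor and assembly genes, 52.1% for Psmc, 14.3% for Psmd, 14.1% for Psma, 12.5% for Psme and 6.82% for Psmb. The order of Psma, Psmd and Psme thus depended on how peaks were assigned. With 5 to 14 genes in each, 1 gene moves a share by many points.

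Groups of other genes placed these values. Translation factors (71 genes of the Eif and Eef families) had a mean share of 17.1% ± 2.8 and the 39 subunits of respiratory complex I 17.95% ± 3.06 (SD, n = 8), both within the range of the ribosomal families. The 27 subunits of the RNA polymerases, which are also made in nearly all cells, had 6.48% ± 3.28, beside 5.31% ± 0.68 over all genes. This mean rested on 1 to 3 genes per library. A peak in at least 1 library was found at 6 of the 27 (22.2%, 95% Wilson interval 10.6% to 40.8%), against 11.3% of all genes. Olfactory receptor genes, which are silent in most of the brain, had a promoter peak in 0 of 1107 genes in every library, and keratin genes in 0 of 53. The 8 members of the set that are made in few tissues also had none in any library. These were the immunoproteasome subunits Psmb8, Psmb9 and Psmb10, the thymus subunit Psmb11, the testis subunits Psma8, Rpl10l and Rpl39l, and the muscle protein Rpl3l. With 8 genes, 0 allows a share of up to 32.4% (95% Wilson interval).

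Several well-known members had no promoter peak. Rplp0 (the stalk protein of the large subunit), Rpsa (a small-subunit protein also known as the laminin receptor), Psmb5 (the chymotrypsin-like active site) and Psmd4 (a ubiquitin receptor) had none in any library. Rps6, the small-subunit protein that S6 kinases phosphorylate, had 1 peak, in AVPV library 3, with a fold enrichment of 3.33 and a percentile of 2.82. Read counts were not analysed here, so that weak binding below the threshold of the peak caller could be missed.

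The 3 genes with the highest median fold enrichment, among peaks whose centre lay in the window, were Mrpl21, Rpl37 and Rps18, each with a peak in all 8 libraries. The Mrpl21 peak, whose start site is shared with Ighmbp2, had a fold enrichment of 31.1, 30.5, 32.1 and 30.1 in arcuate libraries 1 to 4 and of 34.2, 31.2, 39.98 and 51.4 in AVPV libraries 1 to 4. It ranked between the percentiles 98.6 and 99.8 in every list, near the top of all 8 lists. The Rpl37 peak had a fold enrichment of 29.0, 28.0, 30.2 and 33.7 in the arcuate and of 17.2, 21.9, 31.1 and 26.0 in the AVPV. The Rps18 peak, at a start site shared with Vps52, had 28.2, 29.9, 28.0 and 29.6 in the arcuate and 21.6, 24.0, 30.1 and 23.3 in the AVPV. Fold enrichment was not compared between libraries, because each list has its own background, and the ranks of both genes were above 93 in all libraries.

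The other genes that led their families ranked lower. Psmc2, an ATPase of the regulatory particle whose start site is shared with Dnajc2, had percentiles of 95.2, 96.5, 96.7 and 93.7 in the arcuate and 92.0, 94.1, 97.6 and 90.1 in the AVPV. Mrpl39 had percentiles of 93.0, 94.6, 94.2 and 93.7 in the arcuate and 89.4, 92.2, 96.8 and 95.8 in the AVPV. These overlapped between the nuclei. Mrps18c had percentiles of 86.2, 91.8, 88.3 and 86.2 in the arcuate and 69.4, 72.5, 87.3 and 66.4 in the AVPV, where 1 library reached into the arcuate range. Psmg1, a chaperone of proteasome assembly, had 71.3, 87.7, 79.4 and 71.6 in the arcuate and 89.6, 83.5, 88.9 and 88.9 in the AVPV. Rpl30, second among the Rpl genes, had only moderate ranks, of 53.7, 56.0, 26.2 and 74.1 in the arcuate and 56.6, 62.6, 62.3 and 56.9 in the AVPV.

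**Figure D2:**
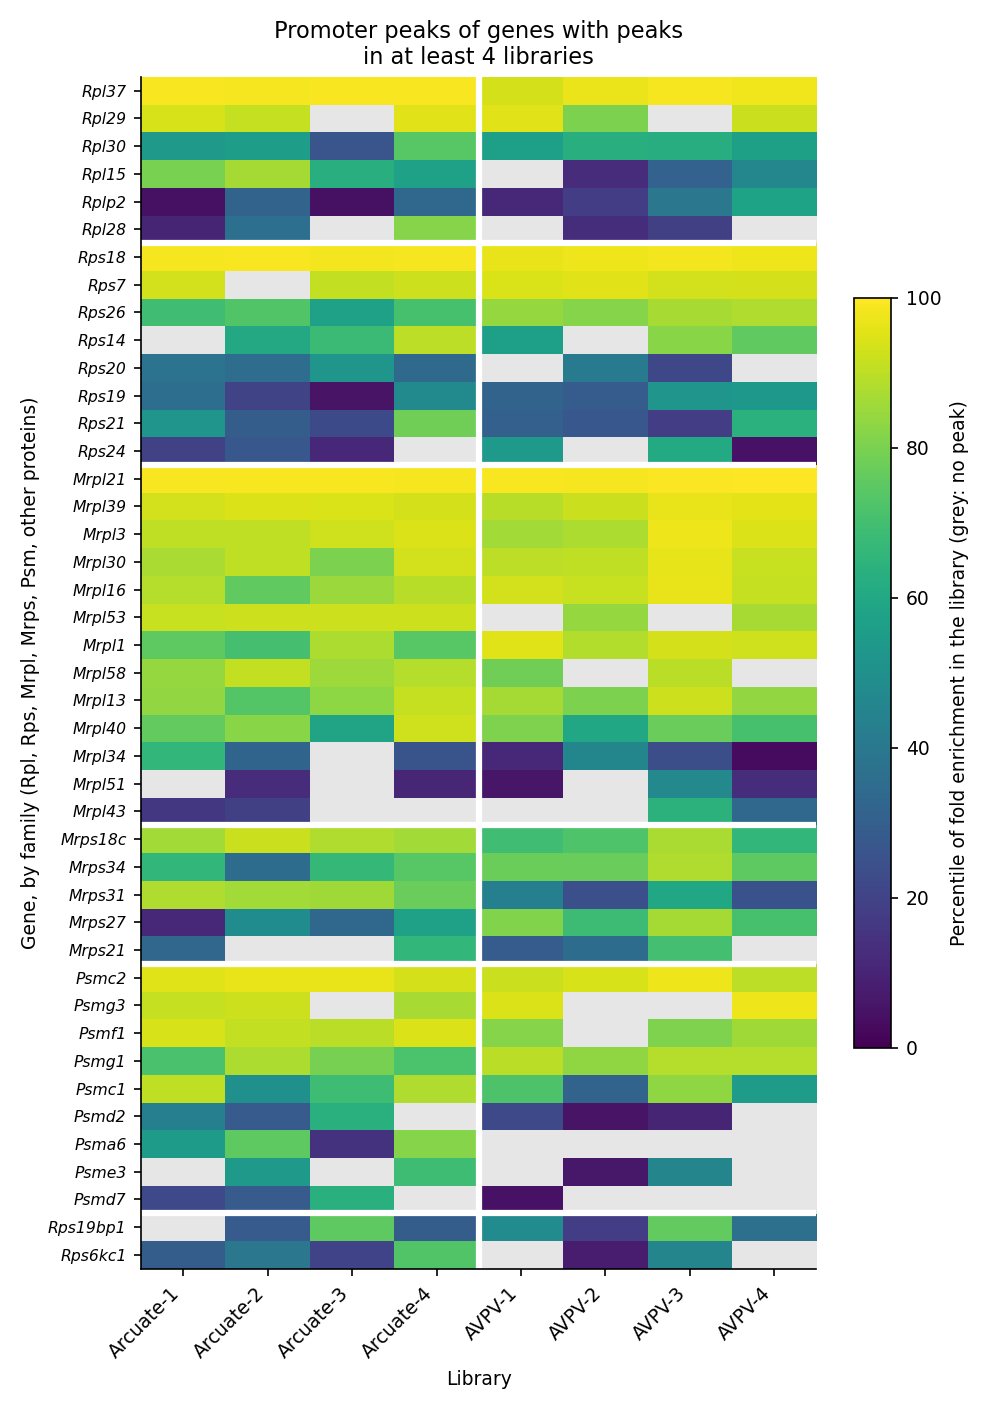
Percentile of fold enrichment within the library (colour, from 0 to 100) of the promoter peak of each of the 43 ribosomal and proteasome genes with a peak in at least 4 libraries (rows, by family), in each library (columns). Grey marks a gene without a peak in the promoter window. Rpl37, Rps18 and Mrpl21 rank above 93 in every library, and the grey AVPV cells of Psma6 are peaks whose centre lay just outside the window.

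The sequences around the summits of the leading peaks are shown because the same 7 letters recurred in them. Each runs 100 bases to either side of the median summit, on the strand of the gene, in GRCm38.p6, and capitals mark the ETS letters CCGGAAG or their reverse complement. The windows lie at chr19:3282864-3283064, plus strand (Mrpl21), chr15:5116439-5116639, plus strand (Rpl37), chr17:33955771-33955971, minus strand (Rps18), chr5:21786605-21786805, plus strand (Psmc2) and chr16:84735164-84735364, minus strand (Mrpl39).
Mrpl21: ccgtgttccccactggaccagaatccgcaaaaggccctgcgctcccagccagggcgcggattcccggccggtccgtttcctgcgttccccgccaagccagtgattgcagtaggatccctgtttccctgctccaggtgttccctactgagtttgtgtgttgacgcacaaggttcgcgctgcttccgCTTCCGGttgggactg
Rpl37: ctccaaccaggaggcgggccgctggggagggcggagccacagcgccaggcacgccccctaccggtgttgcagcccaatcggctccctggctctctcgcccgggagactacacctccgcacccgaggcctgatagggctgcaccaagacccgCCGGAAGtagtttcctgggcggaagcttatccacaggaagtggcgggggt
Rps18: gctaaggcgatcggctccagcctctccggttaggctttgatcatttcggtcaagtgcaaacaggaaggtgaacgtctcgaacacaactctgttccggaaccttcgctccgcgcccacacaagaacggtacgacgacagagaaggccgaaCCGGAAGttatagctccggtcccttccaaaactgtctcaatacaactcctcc
Psmc2: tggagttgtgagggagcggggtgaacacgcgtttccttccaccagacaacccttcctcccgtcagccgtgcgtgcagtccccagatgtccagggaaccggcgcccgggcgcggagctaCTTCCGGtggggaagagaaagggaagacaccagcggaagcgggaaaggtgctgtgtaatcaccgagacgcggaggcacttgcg
Mrpl39: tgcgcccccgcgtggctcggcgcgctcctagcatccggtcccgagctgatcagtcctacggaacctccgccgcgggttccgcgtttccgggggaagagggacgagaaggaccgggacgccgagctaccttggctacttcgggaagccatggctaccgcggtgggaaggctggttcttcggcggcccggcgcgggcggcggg
The first 4 hold 1 match each, and Mrpl39 holds none and is shown as the exception among the leading peaks. Of the 22 genes with a peak in all 8 libraries, 16 had ETS letters within 100 bp of the median summit.

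ETS letters were more frequent at these peaks than at other peaks. No more than 100 bp from the summit, they were present in 61.9% ± 8.5 of the peaks at ribosomal and proteasome promoters (range 47.3% to 73.2%), in 35.4% ± 3.0 of the peaks at other promoters (30.4% to 38.1%) and in 5.60% ± 1.82 of the peaks outside promoters (SD, n = 8). The ranges over libraries did not overlap. Where the letters were present, their median distance from the summit was 42.4 ± 9.8 bp at the ribosomal and proteasome promoters and 44.8 ± 2.0 bp at other promoters.

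The estrogen response element had the opposite distribution. It was searched on both strands as half-sites AGGTCA and TGACCT 3 bases apart, with at most 2 mismatches in 12 bases, within 100 bp of the summit. Outside promoters 45.03% ± 7.07 of peaks held it, at other promoters 3.60% ± 0.53, and at ribosomal and proteasome promoters 1.16% ± 1.25 (SD, n = 8). In each library the last value rested on 0 or 1 peak. The half-site AGGTCA alone, also read inside the element, was found in 45.6% ± 6.8 of peaks outside promoters, 9.15% ± 0.74 at other promoters and 8.04% ± 2.52 at ribosomal and proteasome promoters. A window of 201 bases from 150 bp upstream to 50 bp downstream of each start site held an element in 0 of the 228 genes and in 0.862% of all protein-coding genes.

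The peaks with an element were all at Rps24, a protein of the small ribosomal subunit. Rps24 had a promoter peak in 6 libraries, with percentiles of 19.7, 27.05 and 11.1 in arcuate libraries 1 to 3 and of 53.7, 61.2 and 4.74 in AVPV libraries 1, 3 and 4. In 4 of them the element was no more than 100 bp from the summit (arcuate libraries 1 to 3 and AVPV library 1). It is at chr14:24490393-24490407 and differs from the palindrome by C13T, counted from 1 at its 5′ end. The window shown is chr14:24490344-24490544, plus strand, and capitals mark the element.
Rps24: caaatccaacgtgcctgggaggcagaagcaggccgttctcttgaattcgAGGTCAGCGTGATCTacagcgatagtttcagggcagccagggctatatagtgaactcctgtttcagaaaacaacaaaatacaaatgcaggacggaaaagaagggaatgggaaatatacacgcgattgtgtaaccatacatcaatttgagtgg
The peaks were weak to moderate in their lists, and their summits lay at -378 to -147 bp from a start site, where negative values are upstream.

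Other letters divided the promoter peaks as well. The YY1 letters ATGGCGG were found at 13.2% ± 5.3 of the ribosomal and proteasome promoter peaks and at 6.44% ± 0.65 of other promoter peaks (SD, n = 8), with ranges that overlapped. The SP letters GGGCGG were found at 29.1% ± 3.7 and 42.9% ± 2.7, and the THAP11 letters ACTACAA at 0.596% ± 1.103 and 8.30% ± 1.65. For both the ranges over libraries did not overlap, but the first THAP11 value rested on 0 or 1 peak in each library. The NRF1 letters GCATGCGC were found at 1.74% ± 1.11 and 2.48% ± 0.61 and the CRE letters TGACGTCA at 2.00% ± 0.85 and 1.06% ± 0.26, each from at most 1 peak per library at the ribosomal and proteasome promoters. In the window of 201 bases around the start sites of all protein-coding genes the shares were 11.4% for ETS, 10.8% for the half-site, 5.23% for YY1, 47.7% for SP, 3.03% for THAP11, 3.39% for NRF1 and 2.54% for CRE. Among the 228 genes they were 34.6% for ETS, 10.5% for the half-site, 16.2% for YY1, 51.3% for SP, 4.82% for THAP11, 8.77% for NRF1 and 3.51% for CRE. A match of letters is not a binding site, and no factor other than ERα was measured here.

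**Figure D3:**
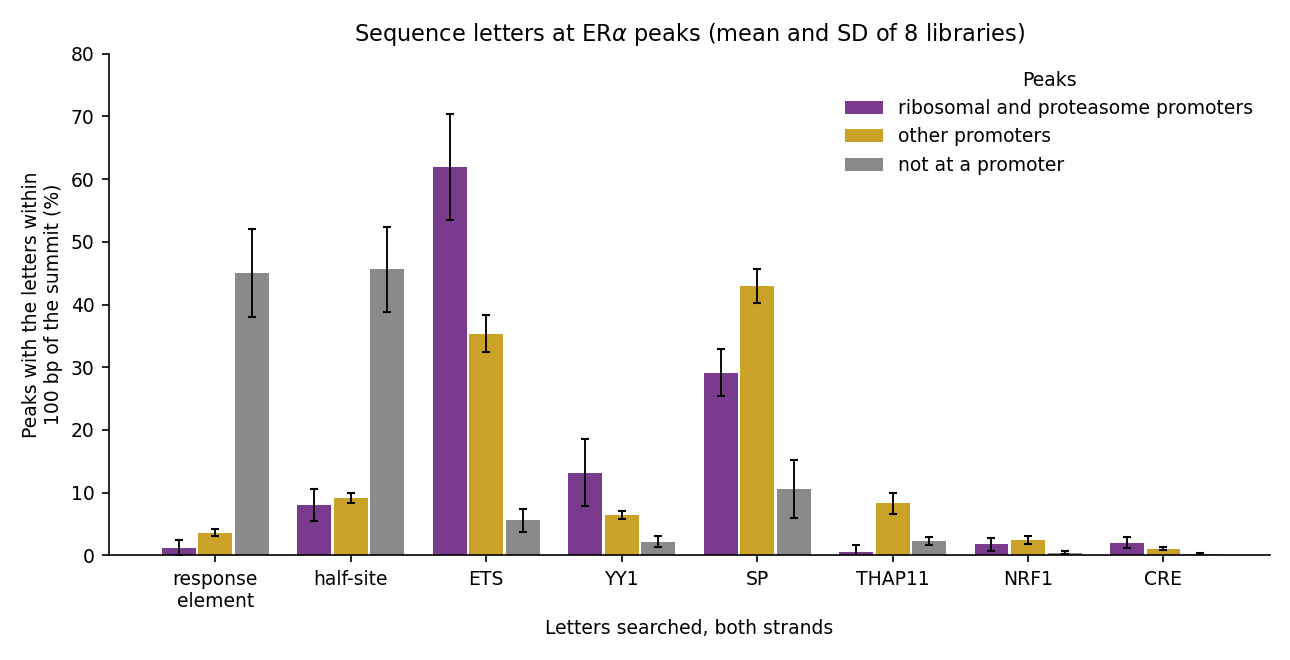
Percent of ERα peaks with each set of letters within 100 bp of the summit, for peaks at ribosomal and proteasome promoters, at other promoters and outside promoters. Bars are means and error bars SDs of 8 libraries. ETS letters are most frequent at the ribosomal and proteasome promoters (61.9%) and the response element outside promoters (45.03%).

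The letters in a promoter went with the presence of a peak inside the set. The ETS letters were in the 201 bases around a start site in 42 of the 74 genes with a peak (56.8%) and in 37 of the 154 without (24.0%). Of the 79 genes with the letters, 32.3% ± 4.3 had a promoter peak, and of the 149 without, 11.5% ± 1.1 (SD, n = 8). Among CpG-rich promoters of other genes the shares were 22.3% ± 2.5 of 1531 with the letters and 6.08% ± 1.31 of 7135 without. A promoter was called CpG-rich with a GC content above 0.55 and a CpG observed to expected ratio above 0.65 from 250 bases before to 50 after the start site. Limited to CpG-rich promoters, the members of the set had 34.1% ± 3.4 of 52 genes with the letters and 13.5% ± 2.4 of 76 without. In both pairs of CpG-rich genes the members lay above the other genes, and the ranges over libraries did not overlap.

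CpG content and shared promoters were also examined. Of the 128 CpG-rich members of the set 21.9% ± 2.5 had a promoter peak, and of the other 100, 14.6% ± 2.7, while the share over all 8794 CpG-rich promoters was 9.13% ± 1.48 (SD, n = 8). Of the 52 members with a shared promoter 23.6% ± 1.7 had a peak, against 18.2% ± 2.6 of all 2061 genes with one. Of the 176 members without a shared promoter 17.3% ± 2.7 had a peak, against 3.91% ± 0.49 of all 18939 such genes. At shared promoters the ranges of the set and of all genes overlapped.

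**Figure D4:**
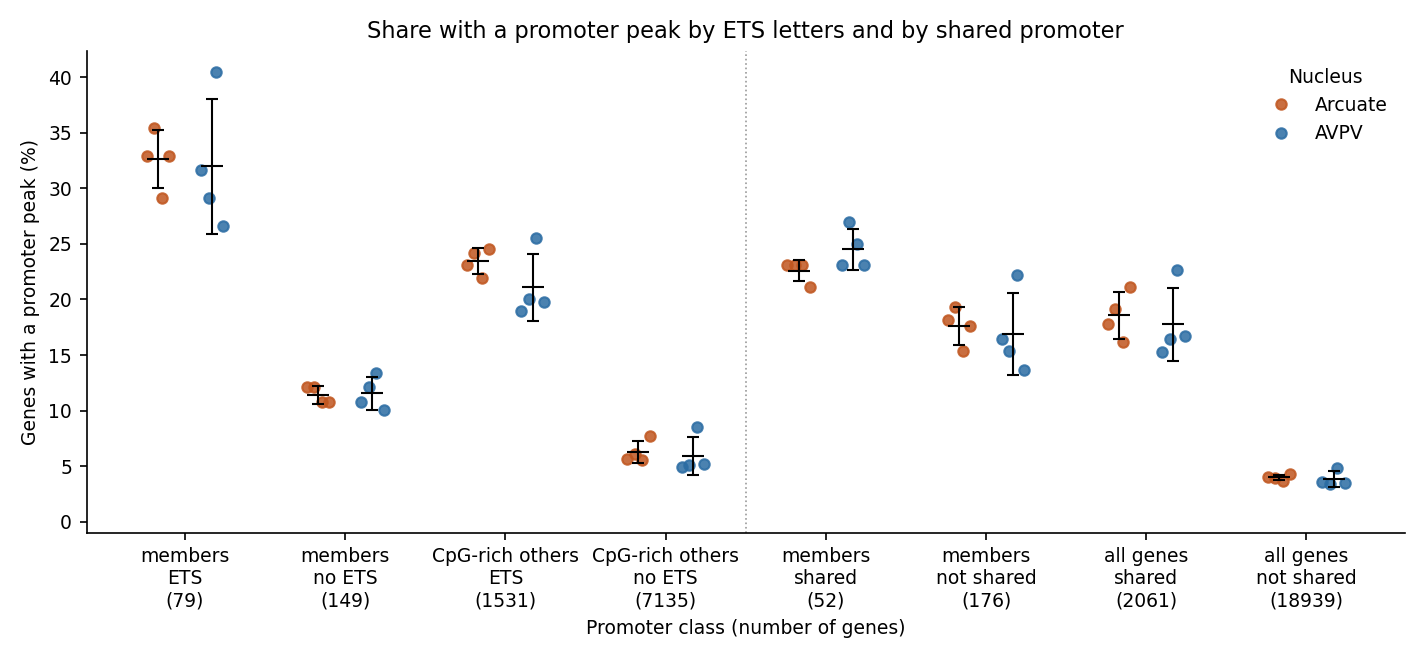
Percent of genes with a promoter peak in each library (points), with the mean and SD of the 4 libraries of each nucleus (bars), for promoters with and without ETS letters (left) and for shared and not shared promoters (right). Members are the ribosomal and proteasome genes, and CpG-rich others are CpG-rich genes outside the set. Members with ETS letters lie highest, at 26.6% to 40.5%.

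A window from 1 kb upstream to 100 bp downstream favours a nearby, upstream summit at any gene. It left out the Mrpl44 and Psmc3 peaks, which were centred further downstream. Inside the window, the peaks of the set lay close to the start sites. Their median summit was at -57.1 ± 12.7 bp from the nearest start site of the gene (negative values are upstream), against -70.5 ± 6.4 bp for other promoter peaks (SD, n = 8). Of these peaks 64.4% ± 5.3 were within 100 bp of the start site, against 54.4% ± 3.5 of other promoter peaks. Their median width was 404 ± 47 bp against 331 ± 8 bp. The median percentile of the members with a peak was 67.6 ± 11.6 and that of all genes with a promoter peak 57.0 ± 3.4 (SD, n = 8). The member median was higher in 7 of 8 libraries and lower in AVPV library 2, by 12.7 points, so the ranks of these peaks did not stand apart from those of other promoter peaks in every library.

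Between the nuclei, no gene of the set passed a test adjusted over all genes, but 4 libraries against 4 limited what such a test could show. A peak in 4 of 4 arcuate libraries and 0 of 4 AVPV libraries was found for 1 of the 74 members with a peak, Psma6, and for 0.635% of the 2364 protein-coding genes with a peak. The reverse was found for 0 members and for 0.381% of these genes. With 4 libraries against 4, the smallest p that Fisher's exact test can give is 0.0286 (two-sided). After Benjamini-Hochberg adjustment over the 2364 genes no gene passed, and 24 genes were at or under 0.05 unadjusted. With that smallest p and so few such genes, no gene could pass the adjustment. The adjusted Fisher result therefore cannot decide whether the nuclei differ.

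The Psma6 call depended on the edge of the window. Psma6, an alpha subunit of the core, had arcuate fold enrichments of 6.52, 8.10, 4.58 and 9.18 at its downstream start site. The centres of these peaks lay at 100, 39, -102 and 43 bp from that start site, negative values again being upstream. All 4 AVPV libraries also had a peak there, with fold enrichments of 10.3, 7.44, 14.9 and 9.55, but with centres at 132, 122, 141 and 127 bp, past the limit of 100 bp. The summits were at -44, -32, 1 and -81 bp in the arcuate and -26, 10, -86 and -23 bp in the AVPV, and so did not separate the nuclei. Counted by the overlap of a peak with the window, an alternative chosen after seeing the data, Psma6 had a peak in all 8 libraries. By that count 0 of 94 members with a peak were in 4 of 4 libraries of a nucleus and 0 of 4 of the other, against 0.54% of 2780 genes for the arcuate and 0.288% for the AVPV. The window shown is chr12:55398687-55398887, plus strand, with 3 sets of ETS letters in capitals.
Psma6: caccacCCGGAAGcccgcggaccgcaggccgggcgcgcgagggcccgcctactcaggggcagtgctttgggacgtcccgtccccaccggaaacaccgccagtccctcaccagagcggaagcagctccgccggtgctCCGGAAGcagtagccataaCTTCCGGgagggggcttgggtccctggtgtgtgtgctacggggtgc
The same count by overlap gave a peak in further libraries at 39 members, and genes outside the set were not counted in this way. Counting by overlap could not give fewer, since a peak with its centre in the window also overlaps the window. Genes with a peak in at least 1 library rose from 32.5% to 41.2% of the members and from 11.3% to 13.2% of all protein-coding genes. The overlap count gave 33 members (14.5%) with a peak in all 8 libraries in place of 22 (9.65%). Over all genes it gave 3.28% in place of 2.12%. Mrpl44 and Psmc3, an ATPase of the regulatory particle, went from no library to all 8. Mrpl44, singled out after its values were seen, had centres 118 to 200 bp past its start site. Its percentiles were 98.3, 97.9, 98.4 and 98.0 in arcuate libraries 1 to 4 and 99.6, 99.5, 99.8 and 99.8 in AVPV libraries 1 to 4. Its fold enrichment was 26.1, 23.7, 28.1 and 26.6 in the arcuate, each below that of Mrpl21 in the same library. In the AVPV it was 43.1, 40.3, 51.7 and 49.9, above Mrpl21 except in AVPV library 4 (51.4). The median of 34.2 lay between the values of the 2 nuclei.

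Among the genes with a peak in all 8 libraries, percentiles were compared between the nuclei by an exact permutation test of 4 against 4 libraries, whose smallest p is 0.0286. All arcuate values were above all AVPV values at 3 of 22 members, against 7.62% of the 446 genes tested, and all AVPV values were above all arcuate values at 5 of 22 members, against 9.64%. No gene passed after Benjamini-Hochberg adjustment (smallest adjusted p = 0.165, exact permutation test), and 77 of 446 had an unadjusted p at or under 0.05. When peaks were ranked by the -log10 of their p-value in place of fold enrichment, 2 members were higher in the arcuate, against 5.61% of the 446 genes, and 0 in the AVPV, against 4.71%. The count towards the AVPV thus depended on the measure used for ranking.

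Mrps31 and Mrps27, both of the small mitochondrial subunit, had the widest gaps in opposite directions among those members. Mrps31 had percentiles of 88.2, 86.0, 85.6 and 77.3 in the arcuate and 43.0, 24.5, 59.9 and 25.4 in the AVPV. The means were 84.3 ± 4.8 and 38.2 ± 16.8 (SD, n = 4 each), a difference of 46.1 points (adjusted p = 0.165, exact permutation test). Mrps27, whose start site is shared with Ptcd2, had percentiles of 11.2, 48.4, 33.5 and 57.4 in the arcuate and 81.1, 68.6, 86.4 and 71.0 in the AVPV. The means were 37.6 ± 20.2 and 76.8 ± 8.4 (SD, n = 4 each; adjusted p = 0.165, exact permutation test). The 2 windows, at chr8:22411242-22411442, plus strand (Mrps31) and chr13:99344577-99344777, plus strand (Mrps27), are shown to set these promoters side by side, with ETS letters in capitals.
Mrps31: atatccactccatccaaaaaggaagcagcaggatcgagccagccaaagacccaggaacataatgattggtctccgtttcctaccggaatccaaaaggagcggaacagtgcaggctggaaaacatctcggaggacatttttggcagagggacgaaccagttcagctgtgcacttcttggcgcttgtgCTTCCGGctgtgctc
Mrps27: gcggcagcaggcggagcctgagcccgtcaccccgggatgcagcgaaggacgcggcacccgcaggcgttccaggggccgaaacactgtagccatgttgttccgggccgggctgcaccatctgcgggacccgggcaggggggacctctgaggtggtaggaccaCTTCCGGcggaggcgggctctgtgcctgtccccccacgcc
Both hold the same 7 letters once, on the reverse strand and downstream of the summit.

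The other members named by the rule differed less. Rps26 had percentiles of 69.4, 72.9, 57.1 and 70.9 in the arcuate and 84.1, 82.0, 87.1 and 88.1 in the AVPV. Mrps34, whose start site is shared with Eme2, had 66.02, 35.4, 66.6 and 74.0 in the arcuate and 77.4, 77.3, 88.1 and 75.1 in the AVPV, and arcuate library 2 stood lowest. For Rpl37 and Rps18 the arcuate was higher by 2.07 and 1.14 points, with percentiles above 93 in all lists. The remaining 2 members with all AVPV values higher were Mrpl1 and Mrpl16, which are named because the count is small.

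**Figure D5:**
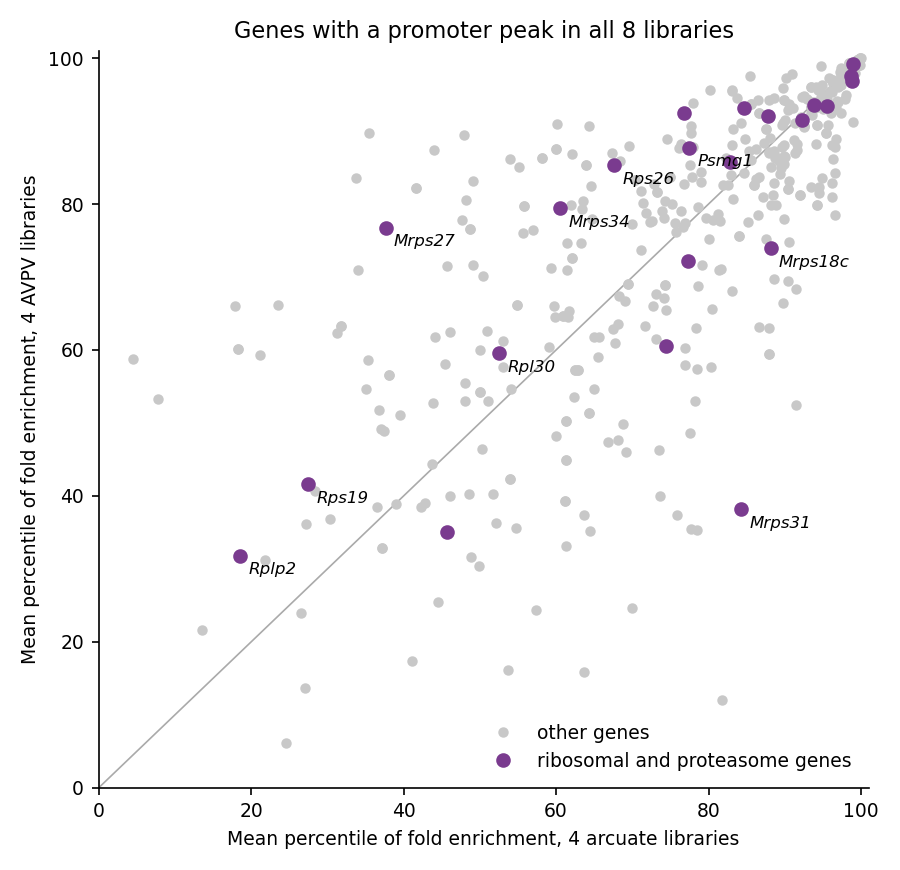
Mean percentile of fold enrichment over the 4 arcuate libraries (x axis) and the 4 AVPV libraries (y axis) for the 446 genes with a promoter peak in all 8 libraries, with equal values on the line. The 22 ribosomal and proteasome genes (purple) lie among the other genes (grey), and Mrps31 (84.3 and 38.2) and Mrps27 (37.6 and 76.8) lie furthest from the line among them.

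Peaks near these genes but outside any promoter window were about as frequent as near other genes. Within 20 kb of the gene and without overlap with a promoter window of any protein-coding gene, 10 to 18 members per library had a peak (6.25% ± 1.28), beside 6.64% ± 1.55 of all protein-coding genes (SD, n = 8). Of these peaks near members, 12.4% ± 13.3 held a response element (SD, n = 8). Those called in all 8 libraries included peaks near Mrpl20 and Mrpl37, with median percentiles of 81.4 and 80.8, and neither held an element. Inside Psmb10, one of the immunoproteasome subunits without a promoter peak, a peak at chr8:105937072-105937560 was called in 3 arcuate libraries and 1 AVPV library, with a median percentile of 25.9.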

How the data were processed

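ERα ChIP-seq peak lists of 4 arcuate and 4 AVPV libraries were analysed, grouped by the sample titles. The authors aligned reads to mm10 with Bowtie2 2.5.0 and called peaks in each library with MACS2 2.2.7.1, and each list was limited to a false discovery rate of 5%. For every peak the deposited columns give fold enrichment (a ratio to local background), -log10 p-value, -log10 q-value and a score, which was left aside. Only ranks within a list were compared, since the deposited lists have no common background. The precision of a share is limited by the number of genes and by the 4 libraries of a nucleus, and read depth was not analysed here.

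Start sites of 37867 curated transcripts (26032 start sites) were read from the RefSeq annotation of GRCm38.p6, whose chromosomes hold every peak, and sequences came from the same RefSeq genome. No peak was identical between libraries. Genes were compared between nuclei with Fisher's exact test over all genes with a peak and with an exact permutation test of percentiles, both adjusted by Benjamini-Hochberg. The members, gene lists and rules were chosen with earlier results of these data known, which is why values over the members have no p. Genes named with values are the 2 of each family with peaks in the most libraries, those found in 4 against 0 libraries, up to 3 in each direction whose percentiles did not overlap, the 8 made in few tissues, and Rplp0, Rpsa, Rps6, Psmb5 and Psmd4. The scripts were tested on simulated data. Alternatives were other windows, the summit, all transcripts, stricter lists, lists of equal length, other gene sets, ranking by p-value, a replicate block, leaving out each library and, chosen after seeing the data, overlap with the window. Python 3.11.15, numpy 2.4.6, pandas 2.3.3, scipy 1.17.1 and pysam 0.24.0 were used. The result for 1 gene is not reported here.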

Additional observations from a re-analysis of the deposited data

Results flagged for a closer look

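In 47 groups of 4 libraries, the shares, ranks and letters of the ribosomal and proteasome genes were searched for a library far from the other 3, and 2 groups held one, where chance gives about 1 in 20. The share of Mrps genes with a promoter peak was 17.2% in arcuate library 4 and 20.7% in each of the other 3 arcuate libraries, a difference of 1 gene. The percentile of the Psmg1 peak was 83.5 in AVPV library 2 and 88.9 to 89.6 in the other AVPV libraries.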

How the results depend on the processing

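The ratio of the share to that of all protein-coding genes stayed between 3.31 and 4.41 under the 12 alternatives that keep all libraries, with the highest value (4.41) without shared promoters, and between 3.49 and 3.60 when 1 library was left out. The arcuate share rose from 18.8% to 23.6% with a promoter from 2 kb upstream to 500 bp downstream, to 22.9% with 500 bp on either side and to 22.5% with peaks assigned by overlap. It fell to 16.7% with a -log10 q of at least 5, to 15.2% with a fold enrichment above 5 and to 13.6% with lists of equal length (2367 peaks each). The AVPV share was 23.7%, 23.4% and 22.9% with the 3 wider assignments and 14.5% with a fold enrichment above 5. Without 1 library the shares ranged from 18.3% to 19.3% in the arcuate and from 17.2% to 19.6% in the AVPV. The difference between nuclei was -3.07 points with lists of equal length, higher in the AVPV, and ranged from -0.84 to 1.499 without 1 library. The mitochondrial minus cytosolic difference was 3.22 points without shared promoters and 7.77 to 9.16 without 1 library.

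The count of members with a peak in all libraries was 34 of 228 with the 2 kb promoter, given without a matching count over all genes. Without shared promoters it was 13 of 176 (7.39%), beside 1.41% of the 18939 such genes. In the main setting it was 22 of 228 (9.65%), beside 2.12% of all genes. Members found in 4 arcuate and 0 AVPV libraries numbered 0 with either wider window, by summit, by overlap, with a fold enrichment above 5 and with lists of equal length, and 1 without any library. The reverse count was 0 to 1 when 1 library was left out, and the 1 arose without AVPV library 2. Members with all AVPV percentiles higher numbered 0 when ranked by -log10 p, 3 without shared promoters and 5 to 6 without 1 library. With same-numbered libraries as a replicate block, the difference in share was 0.11 ± 3.91 points (SD of 4 pairs). The deviations of same-numbered libraries correlated at 0.062, 0.020, 0.023 and -0.049, so the numbers were not taken as pairs. Of 281 values under alternatives, 257 stayed within the spread between libraries or within 1.5 times the count, and 24 moved. Some values could not move, such as the share of a nucleus without a library of the other, or shares under ranking by p-value. The tally therefore overstates how stable the results are. The difference between nuclei, which was near 0, was below 0 in 11 of 20 settings. The number of libraries limits the tests, since no p below 0.0286 can occur.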
